A study of Homo sapiens with 6 samples.

Results

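The transcripts described here belong to 10 genes that make, bind or destroy retinoic acid: RDH10, ALDH1A1, ALDH1A2 and ALDH1A3 on the synthesis side, DHRS3, which reverses the first step, the breakdown enzymes CYP26A1, CYP26B1 and CYP26C1, and the binding proteins CRABP1 and CRABP2. They were taken by gene symbol from the 19977 genes that each library lists, whatever their level, and all 10 passed the filter on low counts. Bulk RNA was sequenced from aggregates of NCRM-1, an established human iPSC line labelled wild type, after 4 days in vertical wheel bioreactors, which stir floating aggregates with a turning wheel. There were 3 libraries from E8, the defined medium in which these cells are kept, with 10 mg/ml polyethylene glycol (PEG) and 0.1 µg/ml heparin sodium salt (HS), and 3 from E8 alone (E8 control). The growth text speaks of a control and a treated bioreactor, which reads as 1 vessel for each medium. If so, vessel and medium cannot be separated, and the p-values below may measure only technical spread between samples. One text field describes PEG and heparin for all 6 libraries, and the label of each single library was followed instead.

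Retinoic acid is a small lipid hormone made from vitamin A in 2 oxidations. Dehydrogenases such as RDH10 turn retinol into retinaldehyde, DHRS3 turns retinaldehyde back into retinol, and the ALDH1A enzymes oxidise retinaldehyde irreversibly to retinoic acid. CYP26 enzymes hydroxylate retinoic acid and so clear it, while CRABP1 and CRABP2 carry it inside the cell. Retinoic acid acts through the nuclear receptors RAR and RXR, which bind paired hexamers, runs of 6 bases, in DNA. Among the genes described here, CYP26A1, DHRS3 and CRABP2 are textbook genes switched on by retinoic acid. They are not the only such genes, and others are followed as lists below. In embryos CYP26 enzymes keep the forebrain and tail bud low in retinoic acid.

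The depth was 26991279 to 36185138 counts per library, and mitochondrial genes took 4.54% to 5.16% of them. All 12 pluripotency markers examined were detected, with a summed level of 11386 to 11615 CPM (counts scaled to a common library size) with PEG and HS, against 11416 to 11636 CPM without. POU5F1 was at 1922 ± 27.8 CPM against 1635 ± 27.9, NANOG at 185 ± 1.76 against 126 ± 0.610, SOX2 at 273 ± 3.92 against 412 ± 11.8 and LIN28A at 1346 ± 63.7 against 1658 ± 15.2 (mean ± SD, n = 3, PEG and HS first). Of the 12 markers, 6 were higher in PEG and HS, against 12.2% of all tested genes, 4 were lower, against 13.1%, and 2 did not pass the test. The cell type given by the labels was thus present in both media.

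The promoter sequences are shown because CYP26A1 was the only one of the 10 genes with a repeat of spacing 5, an arrangement that RAR and RXR are known to bind. The hexamers searched were AGGTCA and, as the permitted variants, AGTTCA as well as GGGTCA and finally GGTTCA, in direct repeats on either strand with 1, 2 or 5 bases between them. The window ran over 4500 bases around the start of each gene's main transcript in GENCODE 44 (GRCh38). Capitals mark the hexamers, 6 flanking bases are given on each side, and every sequence reads 5′ to 3′ on its own strand. CYP26A1 held the following 3 repeats with spacing 5, at offsets of -3371, -1976 and -90 bases from the start of its main transcript, which lies inside the gene as annotated.
CYP26A1, chr10:93070522-93070538, minus strand: tcttctGGTTCActaagGGGTCAgctcag
CYP26A1, chr10:93071917-93071933, plus strand: ctgcagGGGTCAcaggcGGGTCAggcccg
CYP26A1, chr10:93073803-93073819, minus strand: acaattAGTTCAcccaaAGTTCAtcttta
CRABP2 held a repeat with spacing 1 at -457 bases from the start of its main transcript.
CRABP2, chr1:156706028-156706040, minus strand: ggatccAGTTCAgGGTTCAatggag

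Among 19914 such windows, 0.989% held a repeat with spacing 5, 2.04% one with spacing 1 and 19.3% one with spacing 2. CYP26A1 was 1 of 2 windows with 3 spacing-5 repeats. In the shorter RefSeq promoter windows (GRCh38, 250 bases before to 50 after the start), 9 of the 10 genes had an entry, RDH10 being the exception, and only a CYP26A1 window held a match, against 0.0883% of 35116 windows with spacing 5. The 2 distant CYP26A1 repeats lie in the 3934 bases between CYP26C1 and CYP26A1, within an intron of the long noncoding RNA ENSG00000285846. The nearest lies ahead of the main start, in the 5′ untranslated exon of an alternative CYP26A1 transcript. Of the 197 genes with a spacing-5 repeat, 162 were tested. Of these, 17 (10.5%) were lower and 18 (11.1%) higher in PEG and HS, against 13.1% and 12.2% of all tested genes, and 3 (1.85%) fell by more than 1 on the log2 scale, against 1.78%. A match of letters is a description and not a binding site shown to be used.

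**Figure D1:**
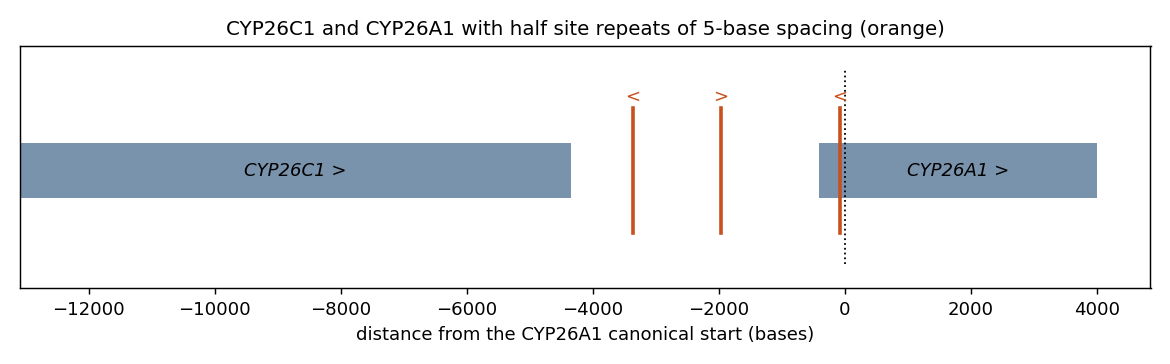
The neighbouring genes CYP26C1 and CYP26A1 on human chromosome 10, drawn to scale as distance in bases from the start of CYP26A1's main transcript, with the 3 spacing-5 repeats marked. The repeats sit at -3371, -1976 and -90 bases, all after the end of CYP26C1.

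The breakdown enzymes gave the widest difference between the media. CYP26A1 (ENSG00000095596, chr10:93073475-93077885, plus strand), the main enzyme that clears retinoic acid in early embryos, was at 1.19, 1.80 and 1.42 CPM in the PEG and HS libraries, against 23.1, 23.5 and 22.9 CPM in the E8 control libraries. Every E8 control library stood far above every PEG and HS library, and the mean fell from 23.2 ± 0.328 to 1.47 ± 0.313 CPM (SD, n = 3). The log2 fold change was -3.99 (SE 0.099, 95% interval -4.20 to -3.78), a 15.9-fold lower level, with an adjusted p of 4.33e-13 by edgeR's quasi-likelihood test, adjusted after Benjamini-Hochberg across 16505 tested genes. It rested on 40, 51 and 48 counts against 624, 764 and 825. By log2 fold change it was the 32nd lowest of the genes tested.

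CYP26C1 (ENSG00000187553, chr10:93060798-93069540, plus strand), the neighbouring gene and a relative that also clears retinoic acid, fell with it. Its level was 0.119, 0.212 and 0.0886 CPM in PEG and HS, against 1.59, 1.85 and 1.50 CPM in E8 control, with no overlap. The log2 fold change was -3.56 (SE 0.35, 95% interval -4.30 to -2.81, 11.8-fold lower, edgeR adjusted p 1.79e-06), from 4, 6 and 3 counts against 43, 60 and 54. With so few counts in PEG and HS, the interval is wide. The log2 ratio of CYP26C1 to CYP26A1, per kilobase of transcript, was -3.91 ± 0.474 in PEG and HS, against -4.26 ± 0.135 in E8 control, overlapped between the media and had an exact two-sided permutation p of 0.4.

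CYP26B1 (ENSG00000003137, chr2:72129238-72147862, minus strand), the third enzyme of the family, was close to the lower limit of what this depth shows. It gave 6, 3 and 7 counts in PEG and HS, against 8, 4 and 10 in E8 control, or 0.178, 0.106 and 0.207 CPM against 0.297, 0.123 and 0.277 CPM. The libraries overlapped, and the log2 fold change of -0.47 (SE 0.54, edgeR adjusted p 0.585) had a 95% interval of -1.62 to 0.69. A difference of the size seen for CYP26A1 and CYP26C1 lies outside that interval, while changes inside it cannot be told from none with these counts.

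Reads on the neighbouring pair carry an uncertainty. The RNA ENSG00000285846 runs on the same strand across both genes, shares 750 bases of exon with CYP26A1 and 826 with CYP26C1, and was not analysed here. Of the 31-base words in the transcripts of CYP26A1, 24.2% also occur in it, as do 17.6% of those of CYP26C1. How reads in the shared stretches were assigned is not given in the sources used here, and their part in the result was not tested.

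DHRS3 and RDH10 catalyse opposite directions of the exchange between retinol and retinaldehyde, and of this pair the reductase passed the test. They are not the only oxidoreductases of retinol and retinaldehyde, and RDH11 was at 150 CPM in PEG and HS, against 131 CPM in E8 control. The ratio below thus describes this pair and not the whole step. DHRS3 (ENSG00000162496, chr1:12567910-12618210, minus strand), which returns retinaldehyde to retinol, was at 4.30, 4.28 and 3.61 CPM in PEG and HS, against 13.8, 14.3 and 15.9 CPM in E8 control. The media were well apart, with a log2 fold change of -1.86 (SE 0.090, 95% interval -2.05 to -1.67, 3.63-fold lower, edgeR adjusted p 5.85e-10). RDH10 (ENSG00000121039, chr8:73294602-73325281, plus strand), the main retinol dehydrogenase of the embryo, was at 9.16, 9.87 and 9.49 CPM in PEG and HS, against 10.2, 9.82 and 9.75 CPM in E8 control. Its libraries overlapped, and its log2 fold change was -0.060 (SE 0.069, edgeR adjusted p 0.583) with a 95% interval of -0.21 to 0.088. RDH10 shares 278 bases of exon with the antisense RNA RDH10-AS1, which was not analysed here. Per kilobase, the log2 ratio of DHRS3 to RDH10 was -0.24, -0.36 and -0.55 in PEG and HS, against 1.29, 1.39 and 1.55 in E8 control. DHRS3 was thus the more abundant of the pair in every E8 control library and RDH10 in every PEG and HS library. The difference was -1.79 on the log2 scale, with an exact two-sided permutation p of 0.1, the smallest that 3 against 3 libraries allow (0.15 adjusted over the 3 ratios so tested).

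**Figure D2:**
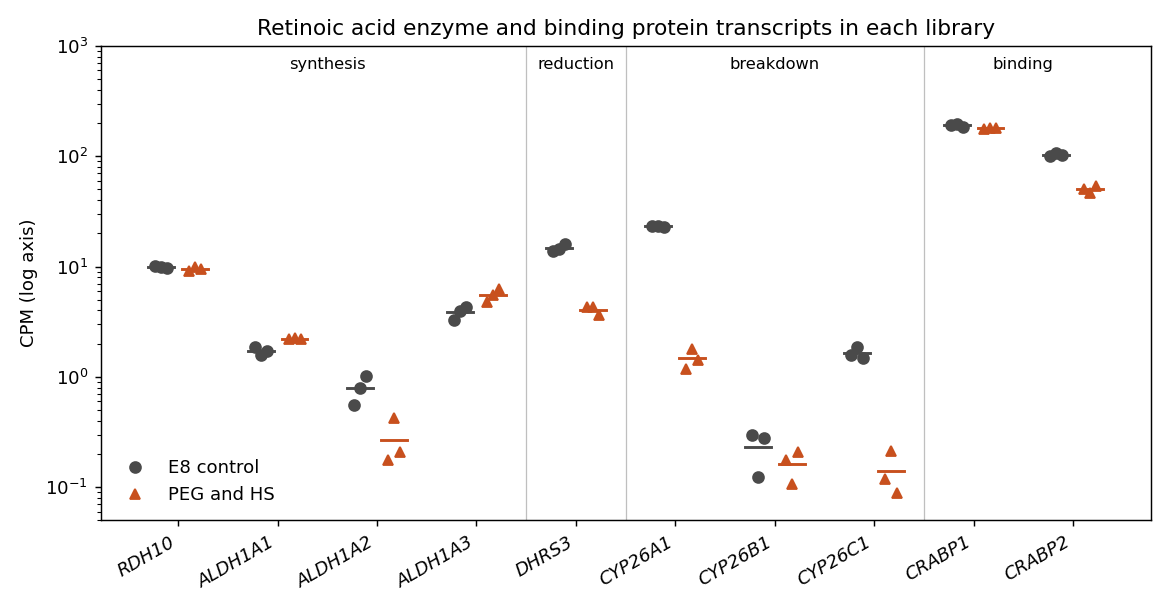
Level of each of the 10 genes in each library, in CPM on a log axis, with the libraries of each medium as points and their mean as a bar. CYP26A1, CYP26C1, DHRS3, ALDH1A2, CRABP1 and CRABP2 have all PEG and HS libraries below all E8 control libraries, while CYP26B1 and RDH10 overlap.

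The ALDH1A enzymes, which commit retinaldehyde to retinoic acid, did not move together. ALDH1A3 (ENSG00000184254, chr15:100877714-100916626, plus strand), known from eye and nasal development, was at 4.77, 5.49 and 6.23 CPM in PEG and HS, against 3.30, 3.94 and 4.32 CPM in E8 control. It rose in every PEG and HS library above every E8 control library, with a log2 fold change of 0.50 (SE 0.13, 95% interval 0.23 to 0.78, 1.42-fold higher, edgeR adjusted p 0.0098). Without PEG and HS replicate 3 its adjusted p was 0.0569, in a range of 0.00255 to 0.0569 over 13 alternatives. ALDH1A3 shares 1715 bases of exon with an antisense RNA, ALDH1A3-AS1, which was not analysed here. The library kit keeps strand, but whether the counting used it is not given in the sources used here.

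ALDH1A2 (ENSG00000128918, chr15:57953424-58497866, minus strand), the enzyme of the early mesoderm, moved the other way at a low level. It was at 0.178, 0.425 and 0.207 CPM in PEG and HS, against 0.556, 0.800 and 1.03 CPM in E8 control, from 6, 12 and 7 counts against 15, 26 and 37. The libraries did not overlap, and the log2 fold change was -1.59 (SE 0.41, 95% interval -2.46 to -0.72, 3.02-fold lower, edgeR adjusted p 0.00924). Without E8 control replicate 3 the adjusted p was 0.0525, in a range of 0.00418 to 0.0525 over 13 alternatives. AQP9, a gene on the opposite strand that shares 354 bases of exon with ALDH1A2, had 0 counts in all 6 libraries. The antisense RNA ALDH1A2-AS1, which shares 209 bases of exon with it, was not analysed here.

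ALDH1A1 (ENSG00000165092, chr9:72900671-73080442, minus strand), a cytosolic enzyme of many adult tissues, was at 2.19, 2.23 and 2.22 CPM in PEG and HS, against 1.85, 1.57 and 1.72 CPM in E8 control. All PEG and HS libraries lay above all E8 control libraries. Its log2 fold change of 0.37 (SE 0.17, 95% interval 0.014 to 0.73) did not pass the adjustment (edgeR p 0.0426, adjusted p 0.123). The log2 ratio of ALDH1A3 to ALDH1A1 per kilobase, 0.58 ± 0.185 in PEG and HS, against 0.44 ± 0.287 in E8 control, overlapped between the media.

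The binding proteins were the most abundant of the 10 genes and differed from each other. CRABP2 (ENSG00000143320, chr1:156699606-156705816, minus strand), which hands retinoic acid to its receptor in the nucleus, was at 50.3, 46.7 and 53.8 CPM in PEG and HS, against 99.5, 107 and 102 CPM in E8 control. The log2 fold change was -1.03 (SE 0.046, 95% interval -1.13 to -0.93, 2.04-fold lower, edgeR adjusted p 2.07e-10), with the media far apart. CRABP1 (ENSG00000166426, chr15:78340353-78348225, plus strand), a cytosolic carrier, was at 178.2, 181.8 and 181.5 CPM in PEG and HS, against 192, 196 and 185 CPM in E8 control. Its libraries did not overlap either, but the log2 fold change was only -0.081 (SE 0.029, 95% interval -0.14 to -0.019, edgeR adjusted p 0.0536). Its adjusted p ran from 0.0254 to 0.181 over 13 alternatives, of which 5 passed the threshold. Per kilobase, CRABP1 made up 82.6% ± 1.03 of the summed CRABP level in PEG and HS, against 71.0% ± 0.645 in E8 control. The log2 ratio of CRABP2 to CRABP1 was -2.25 ± 0.104 and -1.29 ± 0.0454, with no overlap and an exact two-sided permutation p of 0.1 (0.15 adjusted over 3 ratios), again the smallest possible. This ratio and that of CYP26C1 to CYP26A1 were added after the values were seen. Exons of CRABP1 share 440 bases with an unverified antisense transcript, ENSG00000279694, that was not analysed here.

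Of the 10 genes, 5 were lower in PEG and HS (CYP26A1, CYP26C1, DHRS3, CRABP2 and ALDH1A2), against 13.1% of all tested genes. ALDH1A3 alone was higher, against 12.2%, and RDH10, ALDH1A1, CYP26B1 and CRABP1 did not pass the test. All 5 that were lower also fell by more than 1 on the log2 scale, which 1.78% of tested genes did. Libraries did not overlap for 6 genes that were lower, against 19.8% of tested genes, and for 2 that were higher, against 19.5%. The median log2 fold change was -0.75 over the 10 genes and 0.0031 over all genes tested. CYP26A1, CYP26C1, DHRS3 and CRABP2 were named by the study from these same libraries, so their direction here is not independent evidence.

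**Figure D3:**
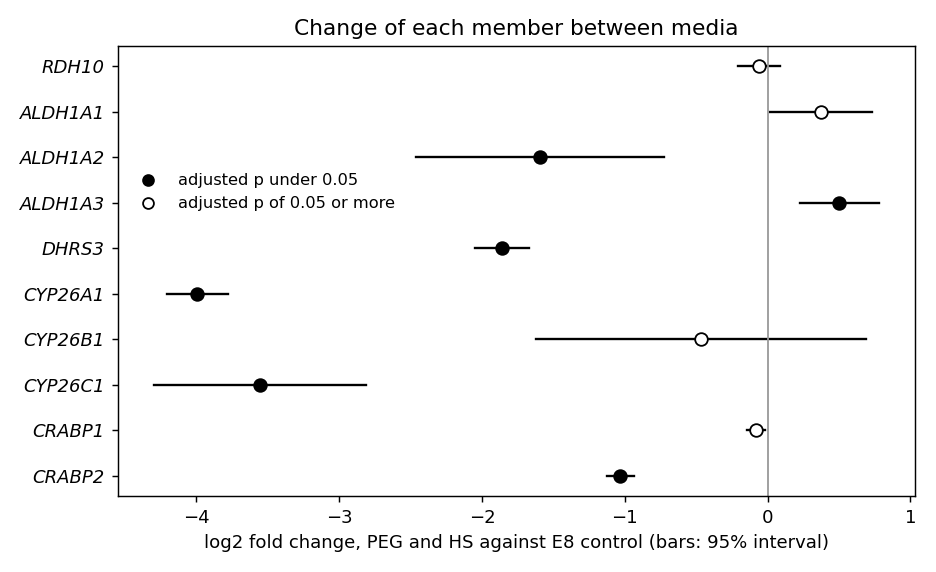
Log2 fold change of each gene, PEG and HS minus E8 control, with its 95% interval from edgeR. Filled points passed an adjusted p under 0.05. CYP26A1 (-3.99) and CYP26C1 (-3.56) lie lowest, ALDH1A3 (0.50) highest, and the interval of CYP26B1 is the widest of those that cross 0.

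Summed by arm, the media differed widely in breakdown and little in synthesis. Levels here are CPM per kilobase of the main transcript, so that genes of different length can be added. The 3 CYP26 genes together were at 0.641, 0.950 and 0.746 in PEG and HS, against 11.5, 11.8 and 11.4 in E8 control, a ratio of 0.0673. The 4 synthesis genes together were at 4.79, 5.26 and 5.31 in PEG and HS, against 4.56, 4.60 and 4.83 in E8 control, a ratio of 1.10 with overlapping libraries. In E8 control the breakdown arm was therefore the more abundant in all 3 libraries, and in PEG and HS the synthesis arm was. That order rests on the genes chosen, and the synthesis sum joins enzymes of 2 successive steps. RDH11, from the wider group of retinol and retinaldehyde oxidoreductases, is in neither sum. In plain CPM, not per kilobase, it was at 150 in PEG and HS, against 131 in E8 control, with a main transcript of 2539 bases. Were it counted with the synthesis genes, that arm would be the more abundant in both media. The log2 ratio of breakdown to synthesis was 1.31 ± 0.0650 in E8 control and -2.74 ± 0.232 in PEG and HS, a 16.5-fold difference. These are sums of transcripts and carry no test, and enzyme activity and retinoic acid itself were not measured in these files.

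The make-up of each arm can be read from the same levels. The 3 ALDH1A genes together were at 2.72 ± 0.224 CPM per kilobase in PEG and HS, against 2.16 ± 0.188 in E8 control, with no overlap. RDH10 gave 46.9% ± 1.65 of the synthesis sum in PEG and HS, against 53.7% ± 2.61 in E8 control. CYP26A1 gave 89.0% ± 1.34 of the CYP26 sum in PEG and HS, against 94.6% ± 0.288 in E8 control, so it was the main breakdown transcript in both media. The log2 ratio of CYP26 to ALDH1A sums was -1.82 ± 0.239 and 2.42 ± 0.140, an 18.9-fold difference.

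**Figure D4:**
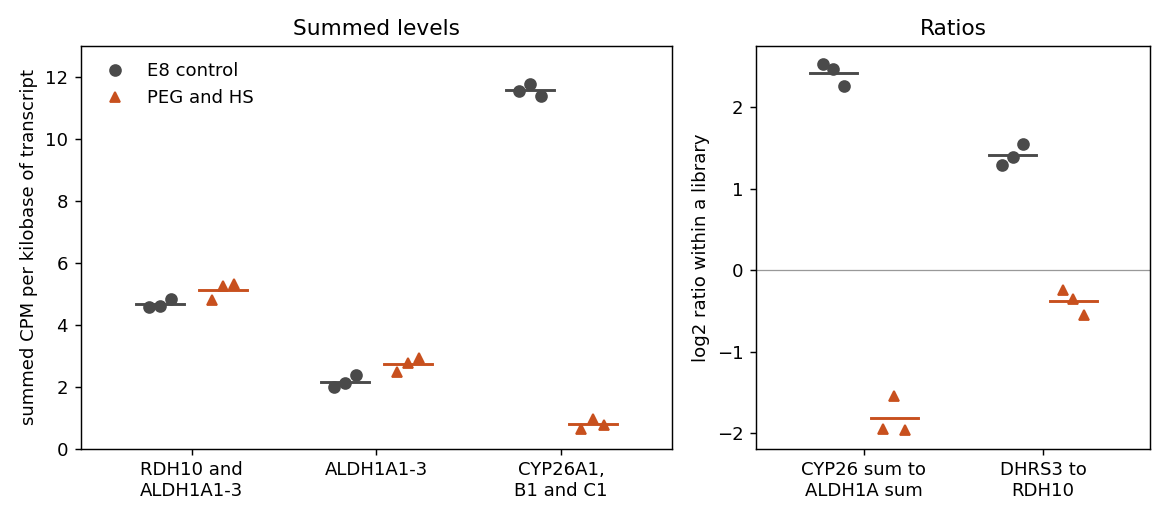
Summed levels of the synthesis genes (RDH10 and ALDH1A1 to ALDH1A3) and the breakdown genes (CYP26A1 to CYP26C1) in each library, in CPM per kilobase. Breakdown exceeds synthesis in each E8 control library (11.4 or more against 4.83 or less) and is below it in each PEG and HS library (0.950 or less against 4.79 or more).

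Per kilobase, the mean levels in E8 control ran from CRABP1 (258.8) and CRABP2 (105.6) through CYP26A1 (10.9), DHRS3 (6.67), RDH10 (2.50), ALDH1A3 (1.11), ALDH1A1 (0.818), CYP26C1 (0.572) and ALDH1A2 (0.234) to CYP26B1 (0.0510). Every neighbouring pair in that order had ranges that did not overlap. In PEG and HS the order was CRABP1 (244.6), CRABP2 (51.6), RDH10 (2.40), DHRS3 (1.85), ALDH1A3 (1.58), ALDH1A1 (1.06), CYP26A1 (0.694), ALDH1A2 (0.0797), CYP26C1 (0.0486) and CYP26B1 (0.0359). There the ranges overlapped for DHRS3 and ALDH1A3, for ALDH1A2 and CYP26C1, and for CYP26C1 and CYP26B1. CYP26A1 went from the third most abundant of the 10 transcripts to the seventh.

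The spread between libraries is set here beside what counting alone gives. CRABP1 varied by 1.13% in PEG and HS, against 2.87% in E8 control (coefficient of variation, n = 3), where counting gives 1.32% and 1.28%. CYP26A1 varied by 1.42% in E8 control, where counting gives 3.68%, and by 21.3% in PEG and HS, where it gives 14.7%. CYP26C1 varied by 46.1% in PEG and HS, where counting gives 48.0%. CRABP2 varied by 6.99% in PEG and HS, where counting gives 2.49%.

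Other genes of the pathway were followed as lists, beside 13.1% lower and 12.2% higher among all tested genes. Of the retinol transport and storage genes, 11 of 12 were tested, none was lower and 3 were higher, with a median log2 fold change of 0.20. LRAT, which stores retinol as esters, rose from 205.9 ± 9.49 to 285 ± 5.48 CPM (log2 0.47, SE 0.033, edgeR adjusted p 4.37e-08). SCARB1, a carotenoid and lipoprotein receptor, rose by 0.25 (adjusted p 0.000158). Of the other retinol and retinaldehyde oxidoreductases, 13 of 19 were tested, with 3 higher, 1 lower and a median of 0.0039. RDH11 rose by 0.20 (adjusted p 8.16e-05), RDH13 by 0.22 (adjusted p 0.00863) and AKR1C3 by 0.60 (adjusted p 0.0384), and DHRS4 had a log2 fold change of -0.25 (adjusted p 0.0487) with overlapping libraries. The count of 1 lower was 0 with library size alone, DESeq2 or limma-voom, and without PEG and HS replicate 1 or 2 or E8 control replicate 2 or 3. DHRS9 and ADH7 had no count.

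Of the retinoid receptors and their partners, 11 of 12 were tested, with 4 lower, 1 higher and a median of -0.025. Among all tested genes, 13.1% were lower and 12.2% higher. RARG, the receptor best known from early embryos, fell from 62.4 ± 2.64 to 44.9 ± 2.23 CPM (log2 -0.47, SE 0.044, edgeR adjusted p 1.06e-06). The coactivator NCOA1 (-0.27, adjusted p 0.000164) and the partner receptor RXRA (-0.18, adjusted p 0.0019) were lower, and RARA was higher (0.16, adjusted p 0.0431). The count of 1 higher was 0 with DESeq2 and without PEG and HS replicate 1 or 2 or E8 control replicate 2 or 3. RARB, a receptor gene with a spacing-5 repeat in its window, did not pass the test and is named after its value was seen. It was at 0.331 CPM in PEG and HS, against 0.181 in E8 control, from 50 counts in all (log2 0.83, edgeR adjusted p 0.255), with overlapping libraries. Of the listed response genes, 18 of 21 were tested, with 8 lower (against 13.1%), 1 higher (against 12.2%) and a median of -0.59. EGR1, an immediate early gene that answers many signals, was at 8.75, 8.46 and 8.45 CPM in PEG and HS, against 34.0, 30.8 and 31.6 CPM in E8 control (log2 -1.91, SE 0.060, adjusted p 4.86e-12). MEIS2, a homeobox partner of HOX proteins, fell from 2.94 ± 0.345 to 1.03 ± 0.163 CPM (-1.50, adjusted p 2.73e-05), and NR2F2, an orphan receptor, was lower by a log2 of -1.01 (adjusted p 0.0288). TSHZ1, a zinc finger gene, was higher (0.62, adjusted p 0.001). The count of 8 was 4 without PEG and HS replicate 2, and 5 without PEG and HS replicate 3, without E8 control replicate 2 or with DESeq2.

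The wider aldehyde dehydrogenase family showed no common direction. Of 15 relatives of the ALDH1A enzymes, 6 were lower, against 13.1% of all tested genes, and 4 higher, against 12.2%, with a median of 0.044. ALDH1L2, a mitochondrial folate enzyme, had the largest rise among those that passed the test (0.43, adjusted p 9.94e-05), followed by ALDH1B1 (0.14, adjusted p 0.00656), ALDH18A1 (0.12, adjusted p 0.0054) and ALDH3A2 (0.11, adjusted p 0.0142, named after its value was seen). ALDH1L1 (-0.76, adjusted p 0.041), ALDH5A1 (-0.34, adjusted p 0.0161) and ALDH6A1 (-0.29, adjusted p 0.000234) had the largest falls among them. The count of 6 was 2 without PEG and HS replicate 1 or E8 control replicate 2, and 3 with DESeq2.

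Most markers of early neural tissue were also lower in PEG and HS. Of 15 neural plate markers, 10 were lower, against 13.1% of all tested genes, 1 was higher and 4 did not pass the test, with a median log2 fold change of -1.17, and their summed level was 66.5 to 73.6 CPM in PEG and HS, against 197.8 to 206.7 CPM in E8 control. None of the 15 was at 0 in all libraries. SOX1, OLIG3, LHX5 and OTX2 had been named by the study from these libraries, so their direction is not independent evidence. The forebrain genes FEZF1 (5.46-fold, log2 -2.45, adjusted p 4.67e-12), LHX5 (5.18-fold, -2.37, adjusted p 2.25e-11) and OTX2 (4.28-fold, -2.10, adjusted p 2.08e-13) were the most lowered, and SIX6, an eye field gene, was higher (0.85, adjusted p 3.45e-07). CYP26A1 fell by 15.9-fold beside them. In bulk samples, fewer cells of a type and less RNA per cell cannot be told apart, and the part of these cells in the CYP26, DHRS3 and CRABP2 results was not tested.

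Markers of other lineages that the aggregates could hold were counted in the same way, beside 13.1% lower and 12.2% higher among all tested genes. Neural crest markers summed to 126.9 to 128.0 CPM in PEG and HS, against 114.9 to 120.9 in E8 control, with 2 of 10 lower and 3 higher. Most of that sum came from ETS1 (55.3 CPM in PEG and HS, against 49.6 in E8 control) and FOXD3 (51.9 against 41.6 CPM), so it mostly follows those genes. The median log2 fold change of the 10 neural crest markers was -0.40. TFAP2A, also active in surface ectoderm, was 9.86-fold lower (log2 -3.30, adjusted p 9.84e-09) and SOX10 lower by a log2 of -0.48 (adjusted p 0.0223), and FOXD3 (0.32), NGFR (0.20) and ETS1 (0.16) were higher. The 2 lower became 1 with DESeq2 and without PEG and HS replicate 1 or 3 or E8 control replicate 1 or 3, and the 3 higher became 1 without E8 control replicate 1. Amnion and trophectoderm markers summed to 17.8 to 19.5 against 28.2 to 30.4 CPM, with 4 of 8 tested lower: GATA2 (-1.23), KRT7 (-0.92), TFAP2C (-0.70) and, named after its value was seen, HAND1 (-3.51, from 16 counts in all). CGA, a defining trophoblast gene, was at 0. Primitive streak and mesoderm markers summed to 64.3 to 67.6 against 58.1 to 62.4 CPM, with TBX6 (-0.48), EVX1 (-3.17, from 13 counts in all, named after its value was seen) and HAND1 lower, KDR higher (0.19), MSGN1 at 0 and 10 of 12 tested. KDR by itself was at 59.8 CPM in PEG and HS, against 52.4 CPM in E8 control, so this sum mostly follows that gene. The 3 lower became 1 with DESeq2 or filterByExpr and without PEG and HS replicate 3 or any single E8 control library. Endoderm markers summed to 6.72 to 7.50 against 9.34 to 11.6 CPM, with HHEX (-0.64) the only one of 7 tested that was lower. That count was 2 without PEG and HS replicate 3 or E8 control replicate 3. The part of these cells in the results above was not tested.

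**Figure D5:**
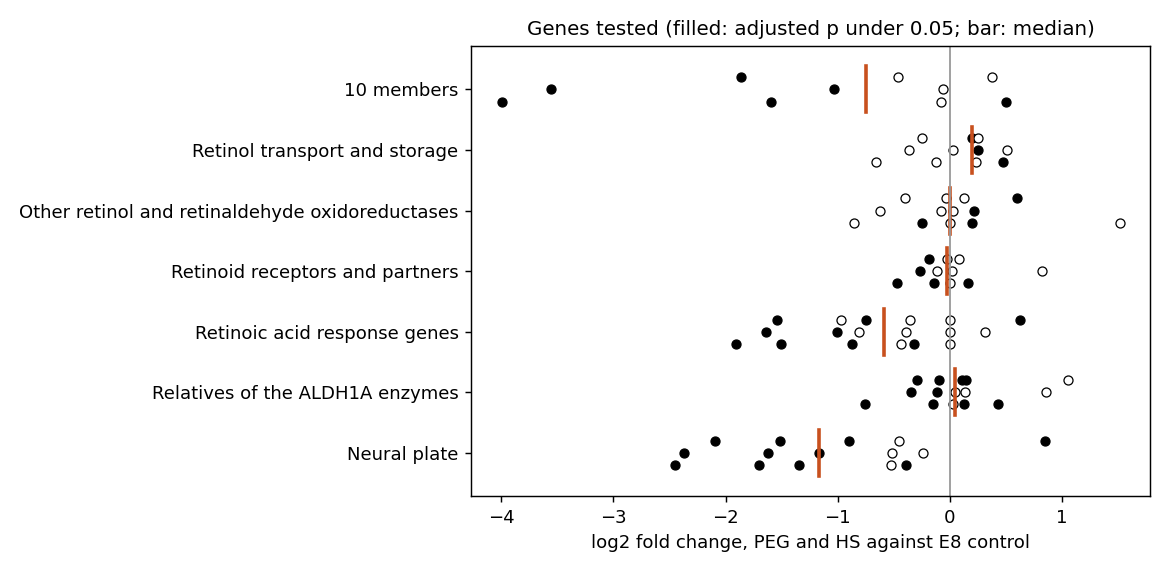
Log2 fold change of every tested gene among the 10 genes, the 5 lists of other retinoid and ALDH genes and the neural plate list, PEG and HS minus E8 control, with filled points for an adjusted p under 0.05 and a bar at each list's median. Below the row of the 10 genes, the neural plate list has the lowest median (-1.17), and the transport and storage list the highest (0.20).

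The genes whose pattern over the 6 libraries was most like that of CYP26A1 were found by the root mean square distance between log2 CPM values centred on E8 control. The search covered 13593 other tested genes with a mean of at least 1 CPM in E8 control. CYP26B1 (0.232 CPM) and ALDH1A2 (0.794 CPM) were below that level and could not appear. The nearest were SGMS2, a sphingomyelin synthase (distance 0.23), ADRA2A, an adrenergic receptor (0.24), SERPINB9, an inhibitor of granzyme B (0.28), PCDH8, a protocadherin (0.33), and LMO1, a LIM domain transcriptional cofactor (0.34). Their log2 fold changes were -3.87, -4.06, -3.83, -3.59 and -3.88 in that order, and none of the other retinoic acid genes compared was among them. ADRA2A, for example, was at 2.28, 2.48 and 3.40 CPM in PEG and HS, against 43.4, 48.0 and 45.1 CPM in E8 control. The likeness was chosen on the contrast itself and is a description.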

How the data were processed

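The authors trimmed reads with Trim Galore 0.6.7, mapped them to GRCh38 with STAR 2.6.1 (versions from the submitters' processing notes) and deposited raw counts per gene, 1 library per file. The counter, whether it used strand, its handling of multi-mapping reads and its annotation are not given in the sources used here. Of 19977 Ensembl identifiers, 19916 matched GENCODE 44, and 1799 genes had no count.

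Genes with at least 10 counts over the 6 libraries (16505) were normalized by TMM and tested without covariates by the quasi-likelihood functions of edgeR 4.0.16 (glmQLFit, then glmQLFTest; R 4.3.3), with Benjamini-Hochberg adjustment over all of them. A gene was called at an adjusted p under 0.05. CPM use TMM library sizes, and levels per kilobase divide them by the length of the main GENCODE transcript. On counts simulated for this comparison with 200 of 16399 genes changed, 100% were recovered and 5.66% of calls were false. The changed genes were above 1 CPM and moved by at least 1 on the log2 scale, with the same dispersion set for every gene. Recovery of smaller changes or of rarer genes was thus not tested. The common biological coefficient of variation was 3.12%. Alternatives were other scalings, DESeq2 1.42.0, limma-voom (limma 3.58.1), other filters, a replicate block, each library left out and an adjusted p under 0.01.

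The genes and the lists around them were chosen with earlier results of these data known. All 10 genes are named. Of each list, up to 3 called genes per direction with the largest log2 fold change and at least 1 CPM in the higher medium are named, with the 5 genes most like CYP26A1 and POU5F1, NANOG, SOX2 and LIN28A as the check of cell type. Some genes of the lists that this rule takes, and 1 promoter match, are not reported here.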

Additional observations from a re-analysis of the deposited data

How the results depend on the processing

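The log2 fold changes of the 10 genes, the summed synthesis and breakdown levels and the ratios of DHRS3 to RDH10 and of CYP26 to ALDH1A kept their sign under the alternatives run for each. The other ratios were not recomputed. CYP26A1, CYP26C1, DHRS3 and CRABP2 stayed called under all 13 alternatives (log2 -4.15 to -3.86, -3.94 to -3.31, -1.91 to -1.78 and -1.08 to -0.98), and RDH10 and ALDH1A1 stayed uncalled. CYP26B1 stayed uncalled in the 11 alternatives that gave it an adjusted p, since filterByExpr left it out and DESeq2 gave none. ALDH1A2 ran from -2.04 to -1.36 with libraries left out, and ALDH1A3 from 0.40 to 0.60. CRABP1 passed the threshold with limma-voom (-0.081, adjusted p 0.0493), with no low-count filter (-0.083, 0.0483), with filterByExpr (-0.088, 0.0337) and, over a range of -0.10 to -0.064 with libraries left out, without E8 control replicate 3 (-0.10, 0.0254). The cause was not tested. With libraries left out, the genes called higher among the 10 numbered 0 to 1, and those called lower in the 5 lists of other retinoid and ALDH genes 11 to 15, against 19 with all libraries and 12 with DESeq2. At an adjusted p under 0.01, 1434 genes were lower and 1167 higher, against 2157 and 2016. Same-numbered libraries deviated together by correlations of 0.031, 0.038 and 0.043, and differently numbered ones by -0.094 to 0.054. With 3 libraries per medium, these values cannot settle whether the numbers pair them. With the replicate block, 2257 genes were lower and 2187 higher, and CRABP1 was called (-0.081, adjusted p 0.0392). Depth limits CYP26B1, CYP26C1 and ALDH1A2, which had few counts.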
